A study of Mus musculus with 9 samples.

Results

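The subject is a list of 36 genes used by cranial ganglia and other neurons, read in RNA libraries from the head of E14.5 mouse embryos. They were taken by gene symbol from a deposited table of 43548 gene identifiers, and all 36 were found there, each under 1 identifier. By role, 12 encode neurofilaments and other proteins of the axon cytoskeleton, 2 are RNA-binding proteins of neurons, 4 belong to the synaptic vesicle, 7 to secretory granules and their neuropeptides, 7 to the sensory lineage and its receptors and channels, and 4 to the sympathetic lineage. The list was drawn up with its levels in these libraries known, so the values of its members are given below as a description. No p-value is given for a member, and the numbers of members past the limma threshold stand beside those of all genes only for reference.

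All mRNA libraries came from embryos of the same stage. There were 3 control cranial base, 3 MCAGF8 cranial vault and 3 control cranial vault libraries, and each was an RNA pool of 3 tissue samples, 9 samples per group. MCAGF8 embryos are Msx2-Cre; CAGFgf8: Cre driven by Msx2 sequences, active in the surface ectoderm and not in the skull mesenchyme, removes a stop cassette so that the CAG promoter at the ROSA26 locus drives Fgf8b. Controls came from the same cross, carried the allele with its stop cassette in place and had no Cre. They are labelled wildtype, and the strain of all groups is given as mixed. The vault is the tissue between skin and brain, taken after the skin had been peeled off. The base is the cartilaginous floor of the skull, collected from the control embryos once the vault had been taken and the brain was out. Control base and control vault can thus come from the same embryos; which pools share embryos is not stated, and the fit treats them as independent. There was no MCAGF8 base group, so the MCAGF8 vault can be set against the control base only with tissue and genotype differing together.

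Neurons of the head outside the brain sit in ganglia that lie on or in the skull base, and their axons run on into the vault and the skin. Cell bodies of sensory neurons are held by the trigeminal, vestibulocochlear and epibranchial ganglia, where the transcription factors Pou4f1 and Isl1 mark the lineage. Autonomic neurons arise from neural crest under Phox2 and Hand factors and make catecholamines with the enzymes Th and Dbh or signal with peptides. RNA for cytoskeletal and vesicle proteins is shared by nearly all neurons, and most of it stays in the cell body.

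Promoter sequence is shown for 5 members, so that members with like and unlike profiles can be read beside what their promoters share. Of the 36 genes, 28 had a promoter in the RefSeq table for GRCm38.p6, and the 250 bases before each start were searched on both strands for TGACGTCA (the cAMP response element), TTCAGCACC and GGACAGC (the left and right parts of the RE1 element), the TATA box TATAAA, the E-box CAGCTG and the homeodomain core TAATTA. The cAMP response element was found in 6 of the 28, Syn1, Scg2, Chgb, Sst, Isl2 and Th, which is 21.4%, against 1.62% of 27025 promoters of the same length. TTCAGCACC was found in Syn1 alone, against 0.285% of all promoters. For the right RE1 part, the TATA box, the E-box and the homeodomain core the members' shares were 7.14%, 10.7%, 14.3% and 10.7%, against 5.29%, 13.0%, 12.8% and 4.90% of all promoters. The 5 sequences below run 5′ to 3′ on the gene's strand and end at the base before the start. Capitals mark TGACGTCA and, in Syn1, also TTCAGCACC.
Th, minus strand, chr7:142899996-142900245: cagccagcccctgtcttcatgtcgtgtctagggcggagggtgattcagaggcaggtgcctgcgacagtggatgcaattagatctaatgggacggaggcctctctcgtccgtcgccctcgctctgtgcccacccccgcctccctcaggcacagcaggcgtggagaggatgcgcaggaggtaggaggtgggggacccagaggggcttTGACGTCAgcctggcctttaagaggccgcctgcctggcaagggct
Chgb, plus strand, chr2:132781392-132781641: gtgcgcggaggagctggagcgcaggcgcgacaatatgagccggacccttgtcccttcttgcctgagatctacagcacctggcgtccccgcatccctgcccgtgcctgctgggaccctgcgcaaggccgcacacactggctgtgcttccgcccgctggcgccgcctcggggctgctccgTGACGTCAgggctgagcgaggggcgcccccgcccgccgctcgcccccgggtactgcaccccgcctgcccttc
Syn1, minus strand, chrX:20920919-20921168: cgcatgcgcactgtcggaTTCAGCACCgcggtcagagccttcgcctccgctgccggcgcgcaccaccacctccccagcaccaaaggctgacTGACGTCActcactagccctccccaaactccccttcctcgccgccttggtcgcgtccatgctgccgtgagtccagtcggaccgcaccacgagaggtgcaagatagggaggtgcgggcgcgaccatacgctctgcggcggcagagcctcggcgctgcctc
Scg2, minus strand, chr1:79440027-79440276: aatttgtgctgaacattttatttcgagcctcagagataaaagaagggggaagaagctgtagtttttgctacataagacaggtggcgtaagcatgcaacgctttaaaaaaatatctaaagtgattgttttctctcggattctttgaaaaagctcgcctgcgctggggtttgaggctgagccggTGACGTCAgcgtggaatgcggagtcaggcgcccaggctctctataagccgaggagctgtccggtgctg
Sst, minus strand, chr16:23890845-23891094: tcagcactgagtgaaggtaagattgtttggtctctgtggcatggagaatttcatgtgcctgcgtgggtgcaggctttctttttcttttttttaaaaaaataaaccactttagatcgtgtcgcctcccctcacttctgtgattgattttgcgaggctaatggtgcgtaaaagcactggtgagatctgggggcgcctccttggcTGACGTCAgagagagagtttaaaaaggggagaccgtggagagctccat

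The 5 were chosen because they hold the same 8 bases and yet had different profiles across the libraries. Th, Chgb and Syn1 were higher in every base library than in any vault library. Scg2 overlapped between base and vaults, and Sst was lowest in the control vault. The motif searches were chosen with the levels known, and a match in these letters is a description of the sequence.

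The libraries differed most from each other within the base. Between 16006 and 17281 genes reached 1 FPKM in each of the 9 libraries. Pearson's r of log2(FPKM + 1) over all genes tested was 0.904 to 0.946 within the base, 0.959 to 0.98 within the MCAGF8 vault and 0.97 to 0.974 within the control vault. Fgf8, the gene of the transgene, had means of 13.99 FPKM in the MCAGF8 vault and 8.24 in the control vault, a difference of 0.83 ± 0.57 (log2, SE) that was not called by limma (adjusted p = 0.969).

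The summed level of the 36 genes was highest in the base. Levels are FPKM, fragments per kilobase of transcript scaled to the mapped fragments of a library, so that they can be set side by side between genes. The sum was 1433, 1284 and 4798 FPKM in control base replicates 1, 2 and 3. It was 459, 549 and 407 in the MCAGF8 vault libraries and 496, 380 and 521 in the control vault libraries. All base libraries lay above all vault libraries, and the sums of both vault groups overlapped. The mean over the base was 5.38 times that of the control vault and 5.31 times that of the MCAGF8 vault. The FPKM of all genes summed to 1.32e+06, 793249 and 1.12e+06 in base replicates 1, 2 and 3. As a share of these totals the 36 genes held 0.109%, 0.162% and 0.427%, so that replicate 1 was then below replicate 2. In such bulk samples, fewer cells of a type and less RNA per cell cannot be told apart.

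**Figure D1:**
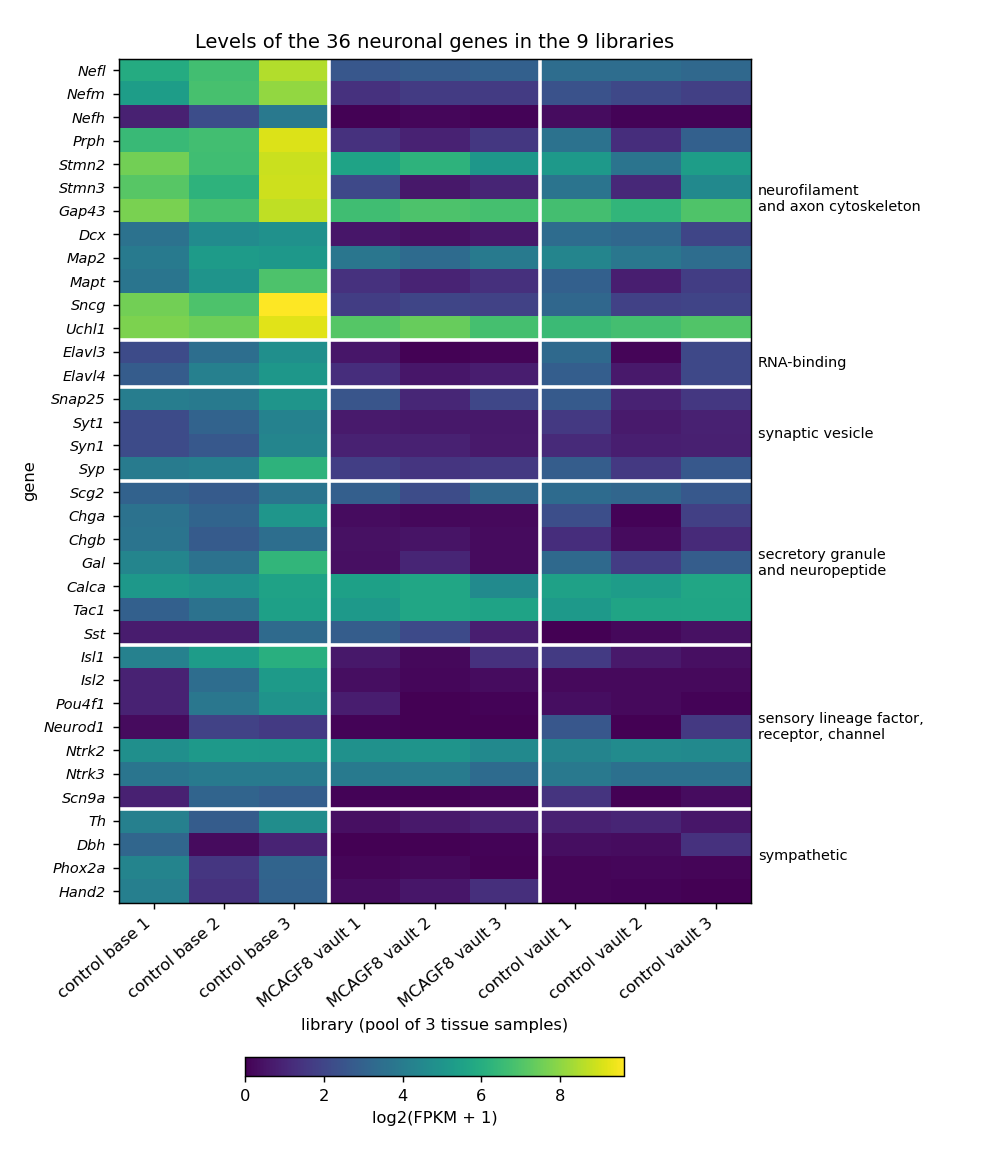
Level of each of the 36 genes (rows, grouped by role) in the 9 libraries (columns), as log2(FPKM + 1) on a colour scale that starts at 0. Most rows are brightest in the control base columns and above all in control base replicate 3, while Gap43, Uchl1, Calca, Tac1, Ntrk2 and Ntrk3 keep their colour in the vault columns.

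Gene by gene, 25 of the 36 were higher in every control base library than in every control vault library, where 8.86% of the 18714 genes tested were, and 6.69% were wholly lower; the other 11 overlapped. The limma test across all genes called 17 of the 36 higher in the base and none lower, against 1.85% of all genes called higher and 1.21% lower, and nothing is read from this count since the same values chose the list. The median difference of the members was 2.18 on the log2(FPKM + 1) scale, with a range from -1.48 to 5.71, and the median of all genes tested was 0.07. Without control base replicate 3 the members' median was 1.61, and 10 were called, 9 higher and 1 lower in the base. The count was 11 without MCAGF8 vault replicate 1 or 3, and 9, 7 and 8 without control vault replicates 1, 2 and 3.

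In the MCAGF8 vault, 29 of the 36 genes were lower in every library than in every control base library, against 13.0% of all genes tested, and 7 overlapped. Here 25 of the 36 were called, all lower, against 5.41% of all genes called lower and 2.98% higher. Of other tissues, 12 of 13 skeletal muscle markers and 9 of 15 glial markers tested were also called lower in the MCAGF8 vault, with muscle sums of 1977.5 to 12339 FPKM in the base against 60.0 to 246 in the MCAGF8 vault. Their part in the members' values was not tested. The median difference of the members was -2.69 and that of all genes -0.07. Between the vaults the members' median was -0.25 and that of all genes -0.01; 29 genes overlapped, 2 were wholly higher and 5 wholly lower in the MCAGF8 vault, where 9.90% and 9.35% of all genes were. Only Dcx was called, lower in the MCAGF8 vault, against 0.604% of all genes called and 0.374% called lower there. The comparisons share their control libraries, so that a high base library enters both comparisons with the base.

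**Figure D2:**
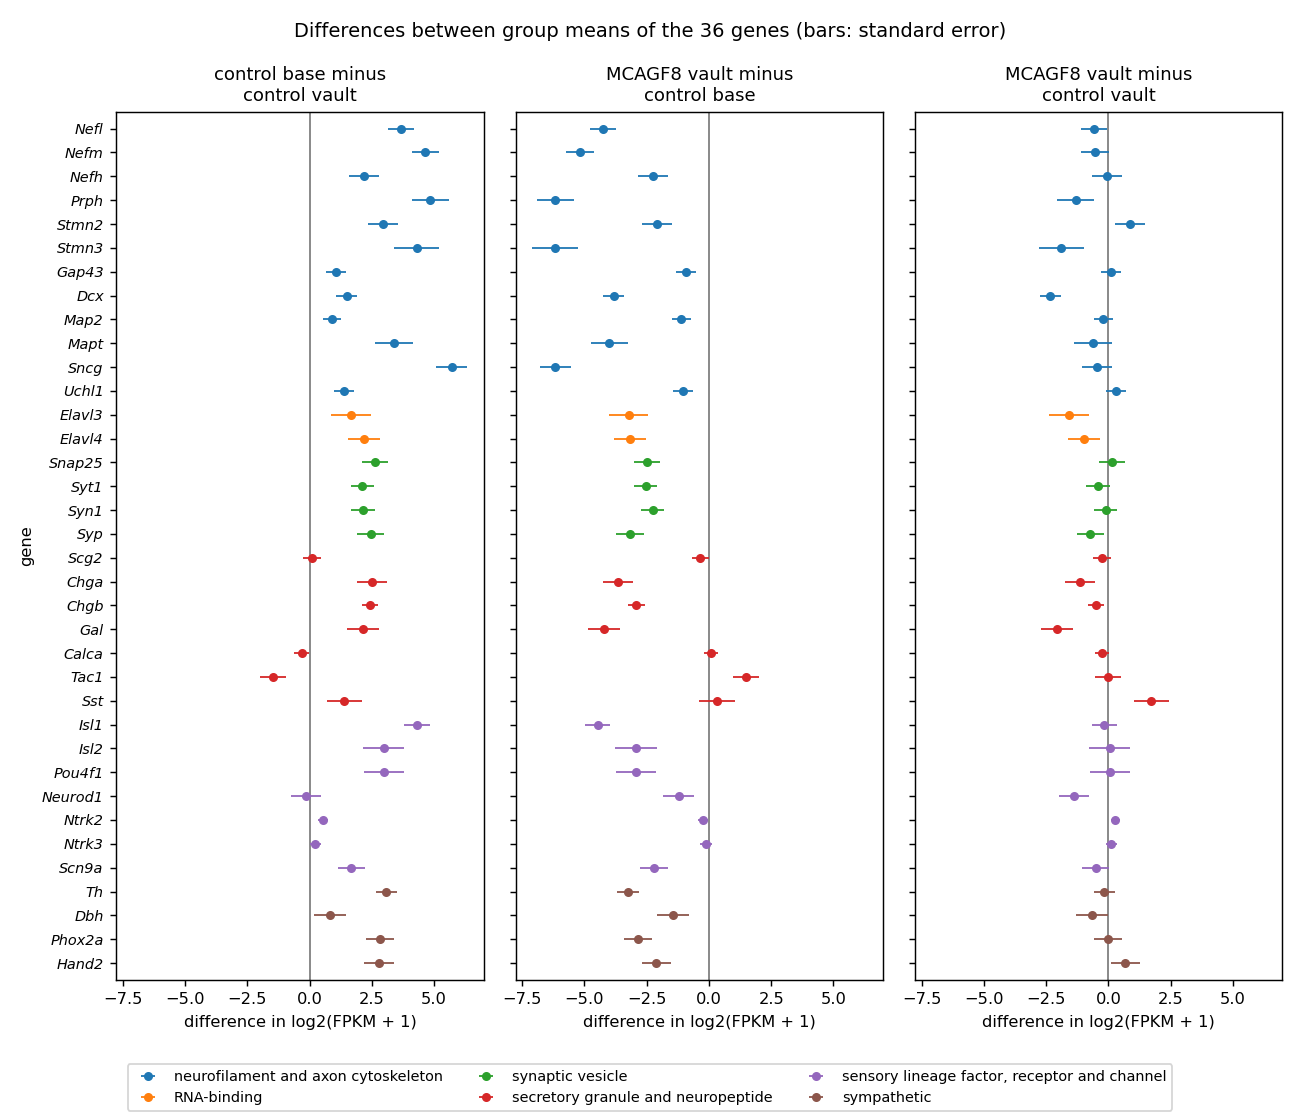
Difference between group means of each gene in log2(FPKM + 1), with its standard error from the limma fit, for control base minus control vault, MCAGF8 vault minus control base, and MCAGF8 vault minus control vault. Points of the first panel lie mostly right of 0, up to 5.71 for Sncg, those of the second mostly left of 0, down to -6.18 for Stmn3, and those of the third between -2.34 for Dcx and 1.72 for Sst, with Gal, Stmn3, Elavl3, Neurod1, Prph and Chga also below -1.

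The neurofilament and axon cytoskeleton genes held the highest levels of the list. Sncg (chromosome 14, 34370274 to 34374789, GRCm38), which encodes gamma-synuclein of peripheral sensory and motor axons, was at 191, 123 and 793 FPKM in the base. It was at 2.36, 3.07 and 2.69 in the MCAGF8 vault and at 8.18, 2.68 and 2.94 in the control vault. The mean of 369 ± 369 FPKM (SD, n = 3) in the base was 80.3 times that of the control vault, and base and vault did not overlap.

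Prph encodes peripherin, the intermediate filament of peripheral neurons. Its levels were 92.1, 104 and 559 FPKM in the base, 1.59, 0.911 and 1.94 in the MCAGF8 vault and 11.3, 1.37 and 6.78 in the control vault. The groups of base and vault did not overlap, whereas control vault replicates 1 and 3 stood above control vault replicate 2 and above all MCAGF8 libraries.

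The 3 neurofilament subunits kept the order light, medium, heavy in every library but control base replicate 2. Nefl, the light subunit, was at 59.7, 105 and 362 FPKM in the base, at 5.14, 5.93 and 6.74 in the MCAGF8 vault and at 9.90, 9.77 and 8.62 in the control vault. Nefm, the medium subunit, was at 40.3, 113 and 268 in the base, at 1.59, 2.23 and 2.17 in the MCAGF8 vault and at 4.34, 3.23 and 2.58 in the control vault. Nefh, the heavy subunit, which is added as axons mature, was at 0.870, 3.87 and 13.8 in the base and at most 0.247 in any vault library. Both Nefl and Nefm were lower in every MCAGF8 library than in every control vault library. As a ratio, Nefm over Nefl was 0.676, 1.07 and 0.738 in the base and between 0.300 and 0.438 in the 6 vault libraries, higher in each base library than in any vault library. Both genes lie together on chromosome 14, Nefl at 68083863 to 68089095 on the plus strand within the annotated span of Nefm, 68082590 to 68124846 on the minus strand. The library kit keeps strand, and the methods do not say if quantification used it.

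The stathmins, which bind tubulin dimers in growing axons, differed from each other. Stmn2 was at 192, 100.3 and 470.1 FPKM in the base, at 46.8, 73.2 and 33.0 in the MCAGF8 vault and at 35.8, 12.1 and 40.3 in the control vault. Stmn3 was at 140.3, 73.7 and 479 in the base, at 3.34, 0.534 and 1.00 in the MCAGF8 vault and at 12.1, 1.14 and 22.8 in the control vault. Stmn3 was thus near Stmn2 in the base, with a ratio between 0.730 and 1.02, and well under it in the vaults, with a ratio between 0.0073 and 0.567.

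Other cytoskeleton genes stayed well expressed in the vaults. Gap43, the growth cone protein of extending and regenerating axons, was at 204, 112 and 414 FPKM in the base, at 101, 122 and 108 in the MCAGF8 vault and at 106, 79.8 and 125 in the control vault. Control base replicate 2 fell within the range of the vaults. Uchl1, a deubiquitinase abundant in neurons, was at 212, 181 and 591 in the base, at 135, 167 and 110.3 in the MCAGF8 vault and at 93.3, 107 and 128 in the control vault. Its lowest base library lay just above its highest vault library. Map2, a microtubule protein of dendrites and cell bodies, ran from 14.52 to 38.3 in the base and from 9.20 to 20.1 in the vaults, with overlap.

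Mapt, which encodes the axonal microtubule protein tau, was at 12.2, 31.0 and 121 FPKM in the base, at 1.56, 0.928 and 1.54 in the MCAGF8 vault and at 6.73, 0.741 and 2.33 in the control vault. The base lay above every vault library, by 16.7 times the control vault mean. Dcx is taken up below with the vaults.

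**Figure D3:**
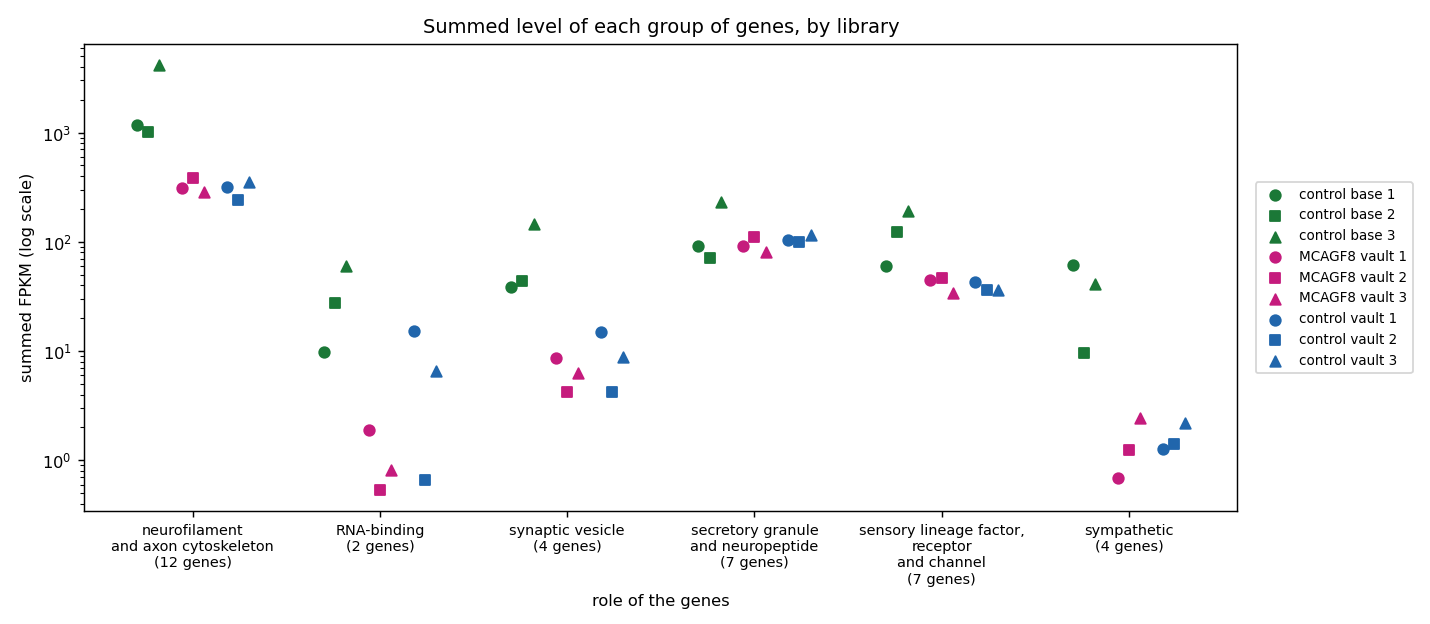
Summed FPKM of the genes of each role (x axis) in each library, on a log scale, with colour for the group and symbol for the replicate. The cytoskeleton, synaptic vesicle, sensory and sympathetic sums of all 3 base libraries lie above all 6 vault libraries. The secretory granule sums, 71.3 to 231 in the base, overlap with 80.6 to 116 in the vaults. The RNA-binding sums overlap too.

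The Elavl genes encode RNA-binding proteins of postmitotic neurons. Elavl3 was at 3.65, 10.1 and 26.6 FPKM in the base, at 0.508, 0.0345 and 0.0968 in the MCAGF8 vault and at 8.80, 0.0816 and 3.25 in the control vault. Elavl4 was at 6.07, 17.5 and 33.6 in the base, at 1.40, 0.498 and 0.724 in the MCAGF8 vault and at 6.38, 0.572 and 3.26 in the control vault. For both, control base replicate 1 lay below control vault replicate 1, and the MCAGF8 libraries lay below every base library.

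The synaptic vesicle genes were among the most uniform of the list, and each of the 4 was higher in every base library than in every vault library. Syp, synaptophysin of the vesicle membrane, was at 15.3, 16.9 and 74.1 FPKM in the base, at 2.44, 1.81 and 2.07 in the MCAGF8 vault and at 6.07, 1.99 and 5.32 in the control vault. Snap25, the SNARE of the plasma membrane, was at 15.9, 14.7 and 31.8 in the base, at 4.77, 1.04 and 3.11 in the MCAGF8 vault and at 5.62, 0.891 and 1.92 in the control vault. Syt1, the calcium sensor of release, and Syn1, which ties vesicles to actin, ran from 3.58 to 18.5 and from 3.65 to 19.8 in the base and reached at most 2.05 and 1.19 in the vaults. The base means were between 7.39 times, for Snap25, and 10.4 times, for Syn1, those of the control vault.

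Genes of the secretory granule split in a different way. Chga and Chgb, the chromogranins of dense-core granules, were high in the base: Chgb, whose promoter is shown above, was at 11.9, 5.82 and 10.2 FPKM there, at 0.341, 0.421 and 0.207 in the MCAGF8 vault and at 1.40, 0.227 and 1.21 in the control vault. Chga was at 11.3, 7.51 and 32.0 in the base and at most 0.242 in the MCAGF8 vault, and at 3.93, 0.0686 and 2.52 in the control vault. Scg2, of the same granin family, was at 7.12, 5.82 and 11.9 in the base and between 3.73 and 9.30 in the vaults. Base and vault thus overlapped for Scg2 and did not for the chromogranins.

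The neuropeptides had no common direction. Gal, galanin of sensory, autonomic and hypothalamic neurons, was at 20.01, 11.3 and 79.6 FPKM in the base, at 0.300, 0.978 and 0.226 in the MCAGF8 vault and at 8.82, 2.31 and 6.17 in the control vault, with no overlap among the 3 groups. Tac1, the precursor of substance P, was at 6.69, 11.3 and 43.0 in the base, at 34.9, 50.9 and 47.0 in the MCAGF8 vault and at 35.0, 48.7 and 49.2 in the control vault. Its base mean was 0.459 times that of the control vault, the lowest ratio of the list, and the low base libraries were replicates 1 and 2.

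Calca, which gives calcitonin and the calcitonin gene-related peptide of pain fibres, was at 34.2, 28.9 and 45.6 FPKM in the base, at 43.5, 51.1 and 23.7 in the MCAGF8 vault and at 45.04, 39.1 and 50.99 in the control vault, with all groups overlapping. Sst, somatostatin, was at 0.680, 0.672 and 9.15 in the base, at 6.17, 3.49 and 0.734 in the MCAGF8 vault and at 0, 0.141 and 0.360 in the control vault. High levels of Sst were found in control base replicate 3 and in MCAGF8 replicates 1 and 2.

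The sensory lineage factors separated the base libraries from each other. Pou4f1 (Brn3a, chromosome 14, 104461676 to 104467999), a POU factor of sensory neurons, was at 0.915, 13.3 and 29.7 FPKM in the base and at most 0.707 in any vault library. Isl2, a LIM factor, was at 0.899, 9.93 and 37.0 in the base and at most 0.268 in the vaults. Isl1, its relative, which also marks autonomic neurons, was at 17.9, 38.8 and 65.7 in the base and at most 2.11 in the vaults. Control base replicate 1 held 32.4 and 41.2 times less Pou4f1 and Isl2 than replicate 3, and 3.67 times less Isl1.

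Of the receptors and channels, the sodium channel Scn9a, found in pain-sensing and sympathetic neurons, was likewise lowest in control base replicate 1, though highest in replicate 2. It was at 0.858, 7.55 and 6.29 FPKM in the base, at most 0.0972 in the MCAGF8 vault and at 1.71, 0.0468 and 0.241 in the control vault. The neurotrophin receptors Ntrk2 (TrkB) and Ntrk3 (TrkC), which are also made outside neurons, were flat: Ntrk2 ran from 27.1 to 36.5 in the base and from 19.5 to 30.9 in the vaults, and Ntrk3 from 12.6 to 14.7 and from 9.26 to 15.2. Neurod1, a proneural factor of young neurons, was at 0.214, 2.70 and 2.14 in the base, and reached 5.14 and 2.06 in control vault replicates 1 and 3, with at most 0.0809 in every other vault library.

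The sympathetic genes had another order within the base, with the lowest level of all 4 in replicate 2. Phox2a, a homeodomain factor of autonomic and some visceral sensory neurons, was at 19.5, 1.84 and 7.51 FPKM in the base and at most 0.160 in any vault library. Hand2, a bHLH factor of sympathetic neurons that is also made in pharyngeal arch mesenchyme, was at 16.7, 1.58 and 7.26 in the base, at 0.250, 0.498 and 1.49 in the MCAGF8 vault and at 0.0861, 0.0567 and 0 in the control vault. Dbh, which turns dopamine into noradrenaline, was at 8.18, 0.228 and 0.965 in the base. All 3 were highest in control base replicate 1 and lowest in replicate 2.

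Th (promoter above), the first enzyme of catecholamine synthesis, was at 17.2, 5.97 and 25.2 FPKM in the base, at 0.332, 0.580 and 0.826 in the MCAGF8 vault and at 0.827, 0.993 and 0.485 in the control vault. It was thus high in replicates 1 and 3. Dbh over Th was 0.476 in replicate 1 and 0.038 in both others. The summed FPKM of the 4 sympathetic genes over that of Isl1, Isl2 and Pou4f1 was 3.12 in control base replicate 1, 0.155 in replicate 2 and 0.309 in replicate 3.

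**Figure D4:**
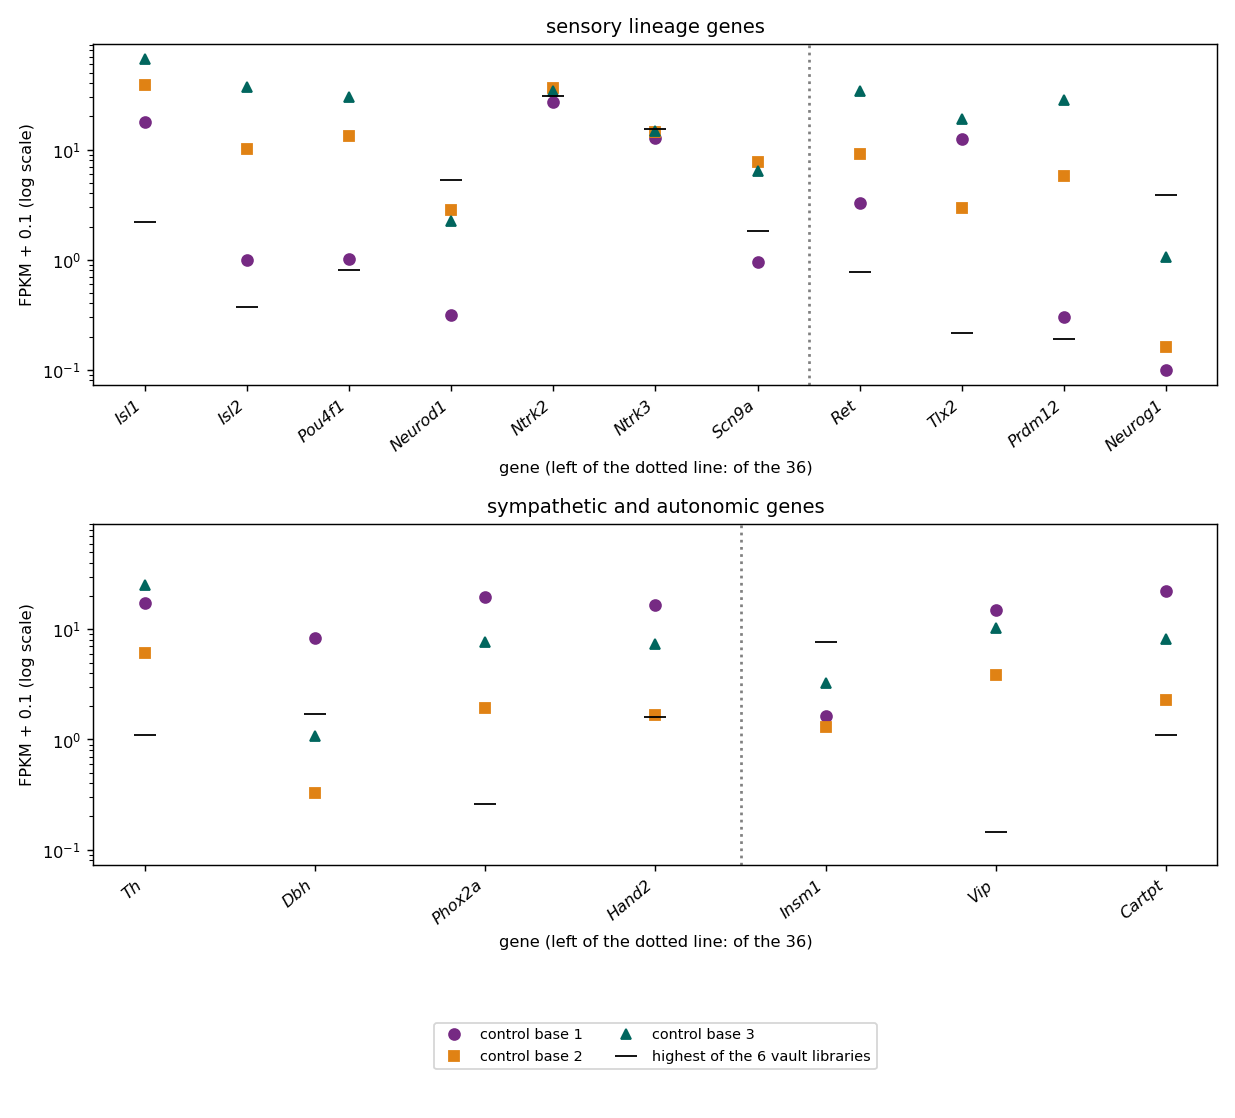
FPKM + 0.1 on a log scale in the 3 control base libraries for the sensory (top) and the sympathetic and autonomic genes (bottom), the members left of the dotted line and other genes of these lineages named in the text right of it, with a bar at the highest of the 6 vault libraries. Control base replicate 1 is lowest for all 7 sensory members, and highest for Dbh, Phox2a and Hand2.

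Over the list, control base replicate 3 was the highest of the base libraries for 28 of the 36 genes and the lowest for none, where it was the highest for 41.2% of all genes and the lowest for 15.7%. Replicate 1 was the lowest for 20 members, including all 7 of the sensory role, and replicate 2 for 16, including all 4 of the sympathetic role and 6 of the 7 granule and peptide genes. Over all genes, replicate 1 was the lowest for 38.3% and replicate 2 for 46.0%. The exceptions to replicate 3 were Chgb, Dbh, Phox2a and Hand2, highest in replicate 1, and Map2, Neurod1, Ntrk2 and Scn9a, highest in replicate 2, where 28.9% and 29.9% of all genes had their highest level.

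Other tissues also differed among the base libraries, some in the order of the neuronal genes and some not. Summed over 18 cartilage markers the level was 1415, 12078 and 1868 FPKM in replicates 1, 2 and 3, with Col2a1, the main collagen of cartilage, at 163, 2292 and 268 and Sox9, the chondrocyte factor, at 18.5, 80.3 and 19.96. Over 12 inner ear markers it was 36.4, 993 and 39.4, over 13 skeletal muscle markers 12339, 1977.5 and 5309.5, and over 12 epidermis markers 555, 84.9 and 752. The cartilage and inner ear sums were highest in replicate 2, where no sum of a role of the members was. Cartilage sums were 2434 to 3555 FPKM in the control vault and 3267 to 5951 in the MCAGF8 vault, above those of base replicates 1 and 3. Markers of brain, whose sum over 16 genes was 8.597, 20.4 and 24.3, held Tbr1 at 0.198, 0.216 and 0.128. Pomc of the pituitary was at 4.21, 5.94 and 3.11, and Lhx3 and Pou1f1, its lineage factors, reached at most 1.47. The sums of the 12 cytoskeleton members, 1171, 1008 and 4132, had the order of the epidermis sums and of the 12 pituitary markers (30.5, 17.1 and 47.3), those of the 7 sensory members, 60.5, 123 and 189, the order of the brain sums, of the glial sums given below, of the 12 bone markers (1511, 1862 and 3311) and of the 10 olfactory epithelium markers (42.6, 57.8 and 89.1), and those of the 4 sympathetic members, 61.5, 9.62 and 40.9, the order of the muscle sums. Summed over 12 housekeeping genes the level was 24439, 14014 and 23081. The housekeeping sums and the total FPKM of each library also had the order of the sympathetic and muscle sums. The sums are not scaled to that total. As a share of that total the 36 genes were lower in replicate 1 than in replicate 2. The part of these tissues in the order of the neuronal genes was not tested.

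Gene length went along with the order of base replicates 1 and 2. Over all genes tested, replicate 1 minus replicate 2 had a median of 0.66 on the log2(FPKM + 1) scale in the genes with the fewest exon bases, of 0.05 in the middle class and of -0.50 in the class with the most. For the members in the same classes the medians were 0.43 over 10 genes, -0.43 over 13 and -1.01 over 13. Replicate 1 was above replicate 2 for 8, 6 and 2 of these members. Over genes of all lengths together replicate 1 was above replicate 2 for 51.7%. That share was not taken by class, so it is no reference for the counts by class. Replicate 3 minus replicate 2 had medians of 2.15, 1.60 and 1.07 for the members and of 0.49, 0.33 and -0.06 for all genes. The part of gene length in the members' order was not tested.

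Of other genes that neurons use, 105 were listed and 103 were in the table (Tubb3 and Drgx were not analysed here). Of the 95 that passed the filter on low values, 30 were called higher in the control base than in the control vault and none lower, against 3.06% of all genes called in either direction. These calls are from the limma test with Benjamini-Hochberg adjustment over all 18714 genes. The count was 54 without control base replicate 1, and 17, 17 and 13 without control vault replicates 1, 2 and 3. The 17 called without control vault replicate 2 were 15 higher and 2 lower in the base. Of the 95, 23 had a mean under 0.5 FPKM in both vault groups and so passed the filter only through the base, where they had to be higher; 10 of these and 20 of the other 72 were called. Their values are given below without a p. Many of these genes are known partners of the members, so they are no independent sample of genes.

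By list, 10 of 20 cytoskeleton and RNA-binding genes were called, 7 of 22 of the vesicle and release genes, 3 of 16 channels and pumps, 3 of 14 sensory, 4 of 14 sympathetic and autonomic and 3 of 9 secretory granule genes, all higher in the base. Rtn1, a reticulon of the neuronal endoplasmic reticulum, was at 54.3, 67.6 and 249 FPKM in the base and at 17.1, 2.82 and 12.4 in the control vault, a difference of 3.33 ± 0.66 (log2, SE) with an adjusted p of 0.0467. Stmn4, another stathmin, was at 77.7, 41.8 and 210.4 against 7.56, 7.51 and 6.17 (3.47 ± 0.48, adjusted p = 0.0128), and Tagln3 at 44.2, 33.1 and 146 against 6.59, 4.28 and 8.51 (3.07 ± 0.48, adjusted p = 0.0167). All base libraries of these genes were above all control vault libraries.

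Among the vesicle genes, Cplx1, a complexin that clamps the SNARE complex, was at 8.38, 11.97 and 59.1 FPKM in the base against 0.383, 0.241 and 0.144 in the control vault. Snap91 and Syngr3 had differences of 1.85 ± 0.32 (adjusted p = 0.0253) and 2.14 ± 0.48 (adjusted p = 0.0696). Of the channels, P2rx3, the ATP receptor of sensory endings, was at 6.18, 35.6 and 118 against 1.36, 0.565 and 0.515 (adjusted p = 0.0437). The serotonin receptor Htr3a was at 8.39, 2.51 and 10.4 FPKM in the base and at most 0.330 in any vault library. P2rx3 was lowest in base replicate 1, as the sensory factors were, and Htr3a in base replicate 2.

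Most sensory lineage genes outside the list had the same low replicate. Ret, the receptor of the GDNF family, was at 3.20, 9.06 and 34.1 FPKM in the base against at most 0.673 in the control vault. Tlx2, instead lowest in replicate 2, was at 12.5, 2.84 and 18.7 against at most 0.0891. Prdm12, a factor of pain-sensing neurons named here for its levels, was at 0.203, 5.70 and 28.0. Of the 17 sensory genes in the table, 13 were lowest in control base replicate 1.

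Of the autonomic genes, the peptide gene Vip was at 14.8, 3.71 and 10.2 FPKM in the base and listed at 0 in all 3 control vault libraries. Cartpt was at 22.4, 2.19 and 8.04 against 0.783, 0.167 and 0.994 (2.45 ± 0.59, adjusted p = 0.0857). In this list 9 of 16 genes were highest in control base replicate 1 and 13 were lowest in replicate 2. The granule genes Scg5 and Scg3 differed by 3.33 ± 0.70 (adjusted p = 0.0547) and 2.85 ± 0.45 (adjusted p = 0.0191), and Pcsk1n was at 10.2, 4.69 and 25.1 FPKM in the base and at most 0.537 in any vault library. Of the genes given with a p, Scg3, Stmn4 and Tagln3 were called with every library left out in turn, and Rtn1, Snap91, Syngr3, P2rx3, Cartpt and Scg5 lost the call in at least 1 of these fits.

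Glia of nerves and ganglia were measured by 16 markers of Schwann and satellite cells, whose sum was 483.5, 577 and 830.2 FPKM in the base, 324, 410.4 and 352 in the MCAGF8 vault and 420.0, 425 and 413 in the control vault. Sox10, the factor of neural crest glia, was at 13.1, 48.3 and 44.2 in the base against 9.13, 3.67 and 7.51 in the control vault (2.09 ± 0.49, adjusted p = 0.0758). Sox10 lost the call with any vault library or control base replicate 2 or 3 left out. In all, 4 of 15 glial markers tested were called, all higher in the base.

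Against the control base, the MCAGF8 vault had 49 of the 95 other neuronal genes called, all lower, where 8.39% of all genes were called in either direction. The count was 25, 30 and 32 without MCAGF8 vault replicates 1, 2 and 3. Of the 72 genes that did not pass the filter only through the base, 32 were called. The genes named above with a p from these lists were lower in every MCAGF8 library than in every base library.

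Between the vaults the members differed far less than between base and vault. Dcx (chromosome X, 143855842 to 143933311), the microtubule protein of migrating neuroblasts, was at 0.483, 0.338 and 0.546 FPKM in the MCAGF8 vault and at 9.66, 8.27 and 3.03 in the control vault, with 11.3, 23.8 and 28.0 in the base. The control vault mean was 15.3 times the MCAGF8 mean, and the groups did not overlap. It was the only member called, which is no independent test since these levels were known when the list was drawn up, and it was not called without control base replicate 3, without any of the MCAGF8 libraries, or without control vault replicate 1 or 2.

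Nefl, Nefm, Gal and Dbh were the other members wholly lower in the MCAGF8 vault. For Nefl and Nefm the control vault means were 1.59 and 1.69 times the MCAGF8 means, with 5.94 ± 0.80 against 9.43 ± 0.70 FPKM (SD, n = 3) for Nefl. For Gal the control vault mean was 11.5 times higher. Dbh was listed at 0, 0 and 0.0743 in the MCAGF8 vault and at 0.273, 0.245 and 1.61 in the control vault, near the bottom of the scale in both. Sst and Hand2, given above, were the 2 members wholly higher in the MCAGF8 vault, with Hand2 at most 1.49.

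**Figure D5:**
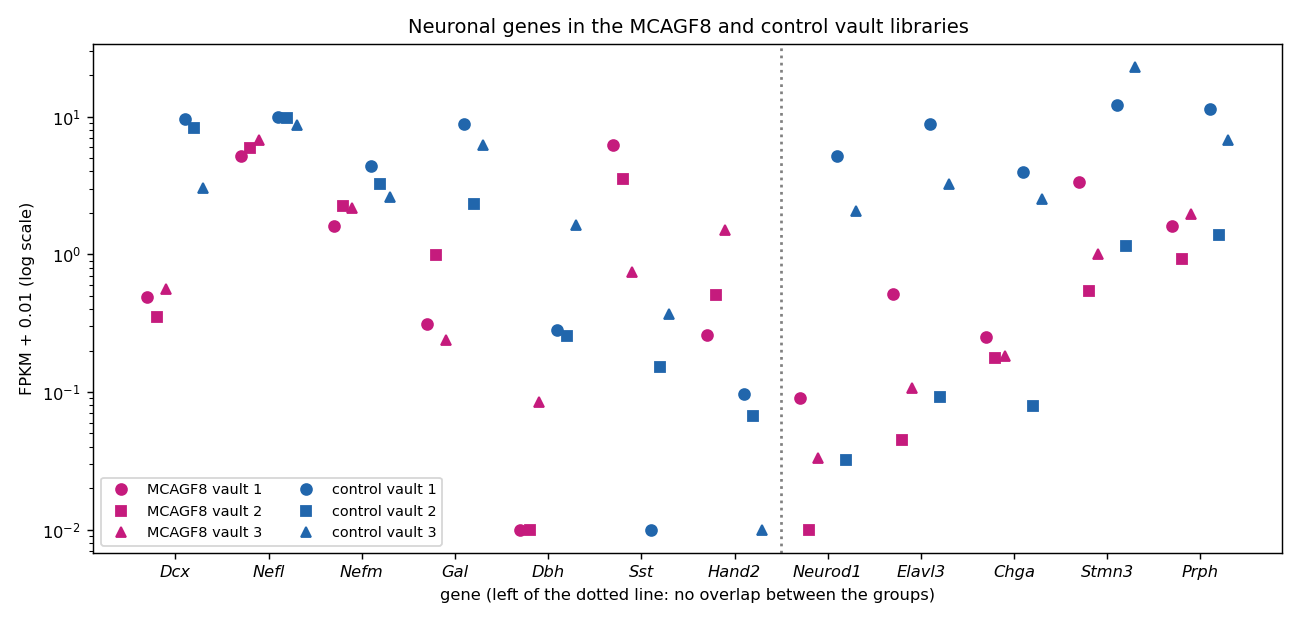
FPKM + 0.01 on a log scale of 12 members in the 3 MCAGF8 and 3 control vault libraries: left of the dotted line those whose groups did not overlap, right of it examples high in control vault replicates 1 and 3. Dcx lies at 0.338 to 0.546 in the MCAGF8 vault and at 3.03 to 9.66 in the control vault, and for Neurod1 and Elavl3 control vault replicate 2 sits among the MCAGF8 libraries.

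Within the control vault, replicates 1 and 3 stood apart for many members. In 13 of the 36 genes both were above control vault replicate 2 and above all MCAGF8 libraries, where 6.09% of all genes tested had that order. They were Prph, Stmn3, Mapt, Elavl3, Elavl4, Syt1, Syp, Chga, Chgb, Gal, Neurod1, Scn9a and Dbh. Among these, Neurod1 was at 5.14 and 2.06 FPKM in replicates 1 and 3 against 0.0223 in replicate 2. Dcx did not have this order, since it was higher in replicate 2 than in replicate 3.

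Some other tissues had the same order in these libraries, and some did not. Of 10 olfactory epithelium markers 6 did, with Omp, the marker of mature olfactory neurons, at 2.29, 0.0290 and 3.03 FPKM and a summed level of 89.7, 45.6 and 77.1 in the control vault against 48.6 to 57.1 in the MCAGF8 vault. Of 16 brain markers 7 did, with a sum of 47.5, 6.57 and 37.9 against 12.7 to 20.8. Lhx2 is in both lists. All 12 bone markers had the order, with sums of 10242, 6753 and 10589.9 against 4784 to 5661, while the 13 muscle markers ran the other way at 1051, 6493 and 1780.2. It was held by 5 of 16 glial, 4 of 12 pituitary, 1 of 12 inner ear and 1 of 10 retina markers. Of 18 cartilage, 13 muscle and 12 epidermis markers, 0 held it. Epidermis sums were 23.7 to 121 in the control vault and 440 to 1089 in the MCAGF8 vault. The part of these tissues in the neuronal levels was not tested.

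None of the 95 other neuronal genes tested was called between the vaults by limma after Benjamini-Hochberg adjustment; 8 had an unadjusted p under 0.05, which is also the case for 6.34% of all genes. The count was 1 without control base replicate 2, 2 without control base replicate 3, and 2 without control vault replicate 2. Neurog1, the proneural factor of sensory and olfactory progenitors, named for its levels, was at 3.77, 0 and 2.46 FPKM in the control vault and at 0.140, 0 and 0 in the MCAGF8 vault, and Insm1 at 7.39, 0.0398 and 7.63 against at most 0.351.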

How the data were processed

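Poly(A) mRNA of 9 libraries was sequenced by the authors with a stranded single-end protocol, aligned with GSNAP and quantified with Cufflinks; for the build, annotation release and tool versions, nothing was given in the sources used here. The deposited values are FPKM per Ensembl identifier, computed by the authors per library and not counts, so read depth is unknown and intervals for counting error could not be had. The table held 43611 rows, of which 63 repeated an identifier and were summed; 17 cells in 9 genes held a placeholder and those genes were left out. Symbols and coordinates came from GENCODE M21 (GRCm38) by identifier.

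For each comparison limma 3.58.1 in R 4.3.3 was fitted to log2(FPKM + 1) of the 18714 genes that averaged 0.5 FPKM or more over all libraries, all 9 libraries together and 1 mean per group, with a trend in the variance. A difference on this scale understates the change of low genes. Calls needed both a two-sided p under 0.05 and, after Benjamini-Hochberg adjustment over all genes tested, a value under 0.1. All 36 members passed the filter, of which Isl2, Nefh, Phox2a and Pou4f1 (4 members) did so only through the base. The script was tested on simulated data. Groups came from the sample titles. Nothing states whether pools of one group came from separate litters, so p-values measure the spread between these pools only.

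The members and all gene lists were chosen with earlier results of these data known. All 36 members are named; of the other neuronal lists, the 3 called genes with the highest mean FPKM in the base per list; Col2a1, Sox9, Sox10 and Pomc among markers of other tissues; and the 10 genes nearest to the members' mean profile. Some genes that this rule names are not reported here. Alternatives were another pseudocount (0.1), no filter or one at 5 FPKM, quantile normalization, rescaling each library to a sum of 1000000, fitting only both groups compared, the replicate number as a block, an adjusted p under 0.05, leaving out each library and, added after seeing the data, removal of a loess trend with exon length.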

Additional observations from a re-analysis of the deposited data

How the results depend on the processing

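The alternatives were run gene by gene for the members, the marker genes and the neuronal genes named by rule, not for the 10 genes nearest in profile as such. No called difference among them changed sign, but differences that were not called did: 3 members for base against control vault (Dbh, Neurod1 and Scg2, with Dbh at -0.05 without control base replicate 1), 3 for MCAGF8 vault against base (Calca, Ntrk3 and Sst) and 11 between the vaults, and 2 and 6 other named genes in the first and last comparison. The members' median difference stayed between 1.61 and 3.00 for control base against control vault, between -4.25 and -2.05 for MCAGF8 vault against control base, and between -0.42 and -0.10 between the vaults. For control base against control vault, members called numbered 9 without a filter, 11 with a filter at 5 FPKM, 6 with only both groups in the fit and 10 at an adjusted p under 0.05; other neuronal genes called numbered 17 with the filter at 5, 6 with both groups only and 19 at the stricter p; all genes called numbered 291, 108 and 255 under these 3 and 862 with the exon length trend removed. For MCAGF8 vault against control base, the filter at 5 FPKM gave 16 members, 25 other neuronal genes and 834 genes in all, where 875 were called with both groups only and 941 at the stricter p. Between the vaults, no member was called without a filter, with rescaling or at the stricter p, which is 0 in each; 1 other neuronal gene was called with a pseudocount of 0.1 and 2 with both groups only; and all genes called numbered 191 with that pseudocount, 66 without a filter, 71 with the filter at 5, 174 with both groups only and 35 at the stricter p. In these the cause was not tested, except that fewer genes were tested under the filter at 5. Leaving out 1 library gave 7 to 23 members, 13 to 54 other neuronal genes and 132 to 1322 genes for base against control vault, 17 to 28, 25 to 61 and 559 to 4580 for MCAGF8 vault against base, and 0 to 1, 0 to 2 and 11 to 231 between the vaults; where it left a group with 2 libraries the fit pooled the spread.

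The labels give the same replicate numbers to all groups, and whether these numbers pair the libraries is not stated. Deviations from the group means correlated between -0.549 and 0.37 for same-numbered libraries of different groups. For libraries with different numbers the range was -0.482 to 0.563. Such correlations cannot show whether pools shared embryos or a batch. With the replicate block, 14, 20 and 0 members, and 234, 918 and 19 genes in all were called in the 3 comparisons in the order above. Read depth is unknown, and 17 to 21 members lay under 1 FPKM in each MCAGF8 library, where a few reads can move a fold.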

Other observations

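Genes outside the list were ranked by how closely their log2(FPKM + 1) over the 9 libraries followed the mean of the members' standardised values, among 12908 genes with a mean of at least 5 FPKM. The 10 nearest were Eef1a2, Scg3, Syt11, Ina, Snx10, Retreg1, Samd10, Pirt, Gng3 and Cend1, with Pearson's r from 0.996 to 0.985 as a description over 9 libraries that fall into base and vault. Eef1a2, the elongation factor form of neurons and muscle, was at 7.52, 11.5 and 54.1 FPKM in the base, at 0.434, 0.118 and 0.186 in the MCAGF8 vault and at 2.11, 0.359 and 1.17 in the control vault. Pirt, a regulator of TRP channels in sensory neurons, was at 6.76, 16.4 and 61.8 in the base and at most 0.876 in any vault library. Samd10 and Snx10 followed the same order at smaller contrast, Samd10 with 8.72 to 24.5 in the base and 2.95 to 4.48 in the vaults. Among the members themselves, Syp, Syt1, Syn1 and Mapt lay nearest to the mean profile (r from 0.991 to 0.986), and Tac1 (-0.446), Calca (0.003) and Sst (0.382) farthest from it.

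Ratios between related members differed between base libraries. Chgb over Chga was 1.05, 0.775 and 0.319 in base replicates 1, 2 and 3, and Isl2 over Isl1 was 0.050, 0.256 and 0.563. Each shows unequal levels of the pair within a library. Fabp7, a marker of young glia, chosen here for its levels, was at 90.5, 95.5 and 165 FPKM in the base. It was at 5.55, 5.73 and 7.25 in the MCAGF8 vault and at 105, 11.2 and 55.4 in the control vault. Replicate 2 was thus its low control vault library. The sums of the 16 glial markers there, 420.0, 425 and 413, did not have this order. Of these markers, 5 had control vault replicates 1 and 3 above replicate 2 and all MCAGF8 libraries.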
